A study of Mus musculus with 6 samples.

Results

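The spectrin skeleton of the red cell and its anchor in the membrane were followed through 9 genes: Sptb, Ank1, Slc4a1, Epb41, Epb42, Dmtn, Tmod1, Add1 and Add2. Members were the probe sets whose only gene symbol in the platform's probe table was one of these names. This gave 23 of the 45101 probe sets on the array, for 8 of the 9 genes. No probe set carried Epb41 as its single symbol, so protein 4.1R is not analysed here. Every one of the 23 probe sets was brighter than the limit on low signals. Ank1 had 4 probe sets, Slc4a1, Dmtn and Add1 had 3 each, Add2 had 5, Sptb and Epb42 had 2 each, and Tmod1 had 1. In RefSeq on mouse build GRCm38.p6 the genes lie apart, Sptb on chromosome 12, Ank1 on 8, Slc4a1 on 11, Epb42 on 2, Dmtn on 14, Add1 on 5 and Add2 on 6, with Tmod1 and Epb41 both on 4.

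Erythroid cells were sorted from Balb/C mouse fetal liver into an S1 and an S3 subset, by flow cytometry on the transferrin receptor CD71, the erythroid antigen Ter119 and a mixture of antibodies to other lineages, and S1 precedes S3 in the study's scheme. No gene was altered and no agent was given in either group. Each subset was sorted on 3 days, and 3 arrays of total RNA per subset were hybridised after linear amplification from 20 ng. The stage label reads embryonic day 12.5 for the S1 arrays and 13.5 for the S3 arrays, while the source label reads 13.5 for all 6, so that a difference of embryo age and one of subset cannot be told apart here. Whole livers were dissociated; how many embryos entered each sort is not stated in the labels.

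The skeleton is a mesh beneath the red cell membrane. Its strands are spectrin tetramers, whose ends meet at junctions built on short actin filaments that carry protein 4.1, adducin, dematin, tropomyosin and tropomodulin. Ankyrin and protein 4.2 tie the beta spectrin strand to band 3, the chloride-bicarbonate exchanger of the membrane, and loss of parts of this link is known to cause hereditary spherocytosis.

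Values are log2 MAS5 signals that the authors had set to 3 reference transcripts, and a difference of 1 on this scale is a doubling. A level on this scale depends on the probes, so it was compared between arrays and never between genes. The arrays fell into 2 kinds that cut across the subsets. In 3 of them (S1 replicates 1 and 2 and S3 replicate 2), the beta-actin probe set at the 5′ end of the transcript was 2.08 to 2.59 log2 units below the one at the 3′ end, and in the other 3 it was 0.45 to 0.56 below. The first kind is called short and the second long, by a limit of -1.5 set on this one measure. Over all probe sets tested, the median difference of long minus short arrays was 0.61, with the subset in the same fit. The array medians ran from 1.83 to 2.94, and the background level, taken as the 95th percentile of 27 bacterial control probe sets, from 1.01 to 1.74. Over the 11959 genes tested the median S3 minus S1 difference was -0.33. Of all calls, 302 genes were higher and 1533 lower in S3, so that 16.5% of calls were higher; the share was 33.0% after centring each array on its median, 35.1% after scaling to a trimmed mean and 38.2% after quantile normalization. The 12 erythroid marker genes with a probe set were above background on all 6 arrays, and their summed linear signal was 7672 to 9848 in S1 and 15891 to 19416 in S3. Of these 12, 6 were called higher and none lower, with a median difference of 0.96, while 2.53% of all genes were higher. With the array kind in the fit 7 were higher, as were 5.81% of all genes.

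Of the 8 measured genes, 5 rose from S1 to S3 and none fell. In the same test 2.53% of all 11959 genes were called higher and 12.8% lower. The genes that rose were Epb42 (protein 4.2), Sptb (beta spectrin), Dmtn (dematin), Slc4a1 (band 3) and Ank1 (ankyrin). Their S3 means were 14.4-fold, 9.37-fold, 7.72-fold, 5.45-fold and 2.25-fold above the S1 means, each on its brightest probe set. For Tmod1 (tropomodulin), Add1 and Add2 (the alpha and beta adducins) the differences were -0.04, 0.40 and 0.43 log2 units and did not pass the test. The 5 genes that rose were also those whose S3 arrays all lay above their S1 arrays, a pattern that 5.81% of all genes showed. The median S3 minus S1 difference over the 8 genes was 1.81. The calls are from limma with Benjamini-Hochberg adjustment over all genes at a threshold of 0.05. Since these are bulk samples, a change in the kinds of cells sorted and a change of RNA per cell cannot be told apart.

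**Figure D1:**
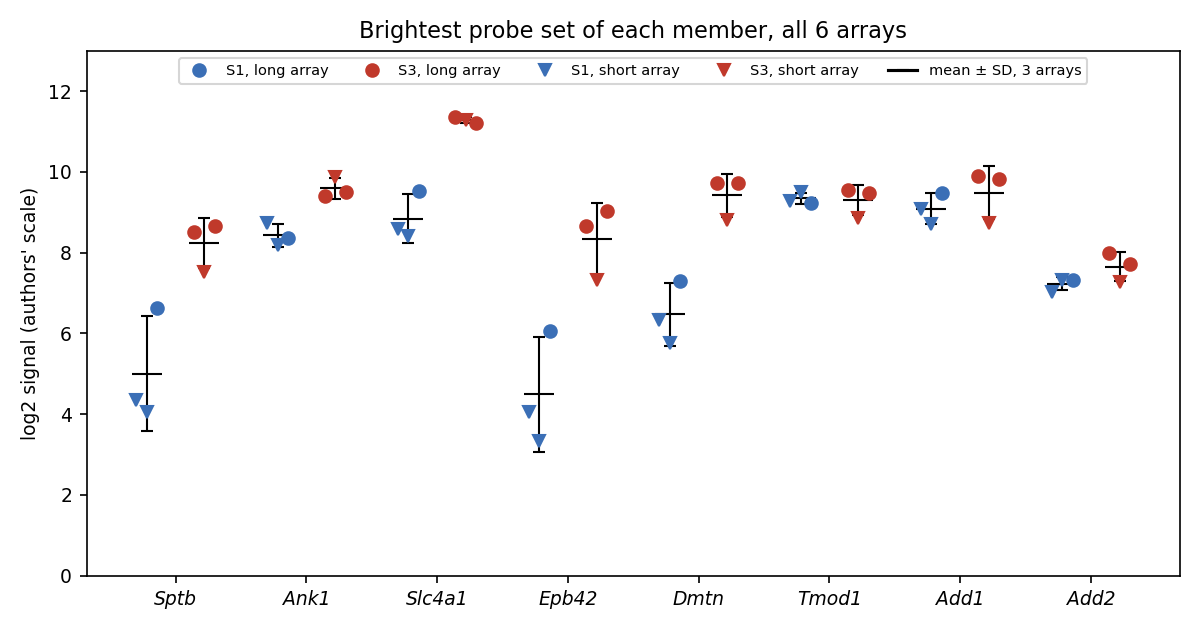
Log2 signal (vertical axis) of the brightest probe set of each of the 8 measured genes on all 6 arrays, blue for S1 and red for S3, circles for long and triangles for short arrays, with mean ± SD of 3 arrays. The red points of Sptb, Ank1, Slc4a1, Epb42 and Dmtn all lie above the blue ones, while those of Tmod1, Add1 and Add2 overlap.

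Upstream sequence was available for 6 of the 9 genes. The 250 bases before the start site are shown for Sptb and Epb42, whose brightest probe sets rose by over 3 log2 units, and for Tmod1, which was not called. The capitals mark matches to a GATA motif (the letters AGATAA, the letters TGATAA, the letters AGATAG or the letters TGATAG), the CACCC box (CACCC), the E-box (CAGNTG) and the TATA box (TATAAA), each searched on both strands, none of them overlapping. The sequences are from RefSeq on mouse build GRCm38.p6, 5′ to 3′ on the gene's strand.
Sptb, chr12:76710548-76710797, minus strand: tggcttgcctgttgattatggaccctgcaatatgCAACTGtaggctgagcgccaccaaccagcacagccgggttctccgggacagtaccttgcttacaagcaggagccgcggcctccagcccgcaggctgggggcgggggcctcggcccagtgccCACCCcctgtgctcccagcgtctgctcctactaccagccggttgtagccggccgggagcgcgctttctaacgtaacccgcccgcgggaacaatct
Epb42, chr2:121036878-121037127, minus strand: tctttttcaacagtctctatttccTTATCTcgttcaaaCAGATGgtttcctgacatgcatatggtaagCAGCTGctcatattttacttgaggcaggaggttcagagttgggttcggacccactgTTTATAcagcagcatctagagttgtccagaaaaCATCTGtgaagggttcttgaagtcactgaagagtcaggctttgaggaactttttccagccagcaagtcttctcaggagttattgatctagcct
Tmod1, chr4:46038972-46039221, plus strand: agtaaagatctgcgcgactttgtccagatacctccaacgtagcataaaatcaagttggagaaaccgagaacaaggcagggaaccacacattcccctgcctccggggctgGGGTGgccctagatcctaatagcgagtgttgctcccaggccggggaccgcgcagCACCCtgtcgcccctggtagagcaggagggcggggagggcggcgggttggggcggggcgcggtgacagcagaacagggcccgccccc
Epb42 held 1 GATA match at bases -226 to -221, 3 E-boxes and 1 TATA match at -126 to -121 on the opposite strand, counted back from the start site. Sptb held 1 CACCC box at -95 to -91 and 1 E-box, and Tmod1 held 2 CACCC boxes, at -141 to -137 and at -87 to -83. GC content was 65.2% for Sptb, 43.2% for Epb42 and 64.0% for Tmod1, against a median of 52.4% over 32817 mouse promoter windows. Of those windows 26.6% held a GATA match, 52.0% a CACCC box, 44.8% an E-box and 12.4% a TATA match. A match of letters describes the window and says nothing of binding.

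Sptb encodes the erythroid beta spectrin, which carries the binding sites for ankyrin and for the actin junction. Its brighter probe set (1450556_at) read 4.34, 4.05 and 6.64 on S1 replicates 1 to 3 and 8.51, 7.53 and 8.67 on S3 replicates 1 to 3. The long S1 array stood above its short S1 companions, the short S3 array below its long ones, and the subsets did not overlap. The rise was 3.23 ± 0.72 log2 units (SE, limma, adjusted p = 0.0246). With the array kind in the fit it was 2.65, and it was 1.95 among long and 3.34 among short arrays. The other Sptb probe set (1455226_at) is dim: it read 0.46, 1.47 and 3.36 in S1 and 2.17, 2.25 and 3.80 in S3, with overlapping subsets and a difference of 0.98 ± 0.86 (limma, adjusted p = 0.613). The mean over both probe sets differed by 2.10 and missed the threshold (limma, adjusted p = 0.125).

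Ank1 encodes the erythroid ankyrin, the adaptor between spectrin and band 3. Its brightest probe set (1419421_at) read 8.73, 8.18 and 8.36 in S1 and 9.39, 9.89 and 9.50 in S3. All S3 arrays were higher, and here the short S3 array was the highest of all. The rise was 1.17 ± 0.22 log2 units (SE, limma, adjusted p = 0.0138), or 1.26 with the array kind in the fit. The other 3 Ank1 probe sets differed by 0.89, 1.46 and 2.41 log2 units in the same direction and were not called (limma, adjusted p = 0.227, 0.264 and 0.0775 over all probe sets). With the array kind in the fit the first and the last passed the threshold (0.58 and 1.97, adjusted p = 0.0173 and 0.0278). Of these, 1443291_at read 0.35, 1.35 and 2.24 in S1 and 3.80, 2.89 and 4.49 in S3, without overlap, but in S1 it lay near the background. The mean over the 4 probe sets differed by 1.48 and missed the threshold (adjusted p = 0.0805).

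Slc4a1 encodes band 3, the most abundant integral protein of the red cell membrane. Its brightest probe set (1434502_x_at) read 8.58, 8.42 and 9.53 in S1 and 11.35, 11.29 and 11.22 in S3. The S3 arrays lay close together, the short one between the 2 long ones. The highest signal of any gene on an array ran from 11.37 to 11.60, so the S3 values of band 3 were near the top of the range. The rise was 2.45 ± 0.27 log2 units (SE, limma, adjusted p = 0.00315). The second probe set (1416464_at) read 7.65, 7.95 and 9.45 in S1 and 11.25, 11.17 and 11.24 in S3, a rise of 2.87 ± 0.42. The third and dimmest (1431743_a_at) read 1.46, 1.28 and 2.30 in S1 and 6.73, 3.59 and 6.36 in S3, and rose by 3.88 ± 0.86. Its S1 values lay near the background of those arrays (1.13, 1.13 and 1.74). All 3 band 3 probe sets were called (limma, adjusted p = 0.00499, 0.00918 and 0.0353 over all probe sets).

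Epb42 encodes protein 4.2, a transglutaminase relative without enzyme activity that binds band 3 and ankyrin. Its brighter probe set (1417337_at) read 4.07, 3.34 and 6.07 in S1 and 8.66, 7.33 and 9.02 in S3. The lowest S3 array was above the highest S1 array, and in both subsets the short arrays were the lower ones. The rise of 3.85 ± 0.77 log2 units (SE, limma, adjusted p = 0.0179) ranked 42 among the 11959 genes tested. It was 3.20 with the array kind in the fit, 2.77 among long and 3.63 among short arrays. The second probe set (1417338_at) read 2.05, 1.73 and 3.64 in S1 and 7.20, 5.46 and 7.04 in S3, a rise of 4.10 ± 0.71 (limma, adjusted p = 0.0156 over all probe sets).

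Dmtn encodes dematin, an actin-bundling protein of the junctions. Its brightest probe set (1460223_a_at) read 6.34, 5.76 and 7.31 in S1 and 9.73, 8.81 and 9.72 in S3. The subsets did not overlap, and the lowest value of each was a short array. Its rise was 2.95 ± 0.45 log2 units (SE, limma, adjusted p = 0.00744), and 2.59 with the array kind in the fit. The other probe sets rose by 4.01 ± 0.63 (1438189_s_at) and 3.28 ± 0.47 (1445439_at). The dimmer of these read 3.47, 3.79 and 4.40 in S1 and 7.43, 6.60 and 7.49 in S3. All 3 dematin probe sets were called (limma, adjusted p = 0.0109, 0.0116 and 0.00899 over all probe sets).

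Tmod1 encodes tropomodulin, which caps the pointed ends of the short actin filaments. Its one probe set (1422754_at) read 9.28, 9.51 and 9.24 in S1 and 9.56, 8.87 and 9.48 in S3. It was bright on all 6 arrays, and the subsets overlapped: the lowest value was the short S3 array and the highest a long S3 array. The difference was -0.04 ± 0.21 log2 units (limma, adjusted p = 0.936). Its sign turned under other scalings (0.19 after median centring, 0.24 after quantile normalization and 0.23 after scaling to a trimmed mean), none of them called.

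Add1 and Add2 encode the adducins, which cap the barbed ends of the same filaments and recruit spectrin to them. The brightest Add1 probe set (1450054_at) read 9.07, 8.71 and 9.48 in S1 and 9.90, 8.73 and 9.83 in S3. The 3 long arrays were all above the 3 short ones, whichever the subset. The S3 minus S1 difference was 0.40 ± 0.35 log2 units (limma, adjusted p = 0.528), 0.11 with the array kind in the fit. The clearest case was the Add1 probe set 1420953_at, which read 6.04, 5.74 and 8.29 in S1 and 8.95, 5.93 and 8.72 in S3, for a long minus short difference of 2.66. The brightest Add2 probe set (1435287_at) read 7.04, 7.33 and 7.32 in S1 and 7.99, 7.26 and 7.71 in S3, with 1 S3 array inside the S1 range and a difference of 0.43 ± 0.30 (limma, adjusted p = 0.422). The Add2 probe set 1431076_at had the largest adducin difference, 1.82 ± 0.73, from 3.58, 4.67 and 6.01 in S1 and 6.87, 5.57 and 7.26 in S3. It was not called (limma, adjusted p = 0.19 over all probe sets) but passed the threshold with the array kind in the fit (1.25, adjusted p = 0.0289).

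**Figure D2:**
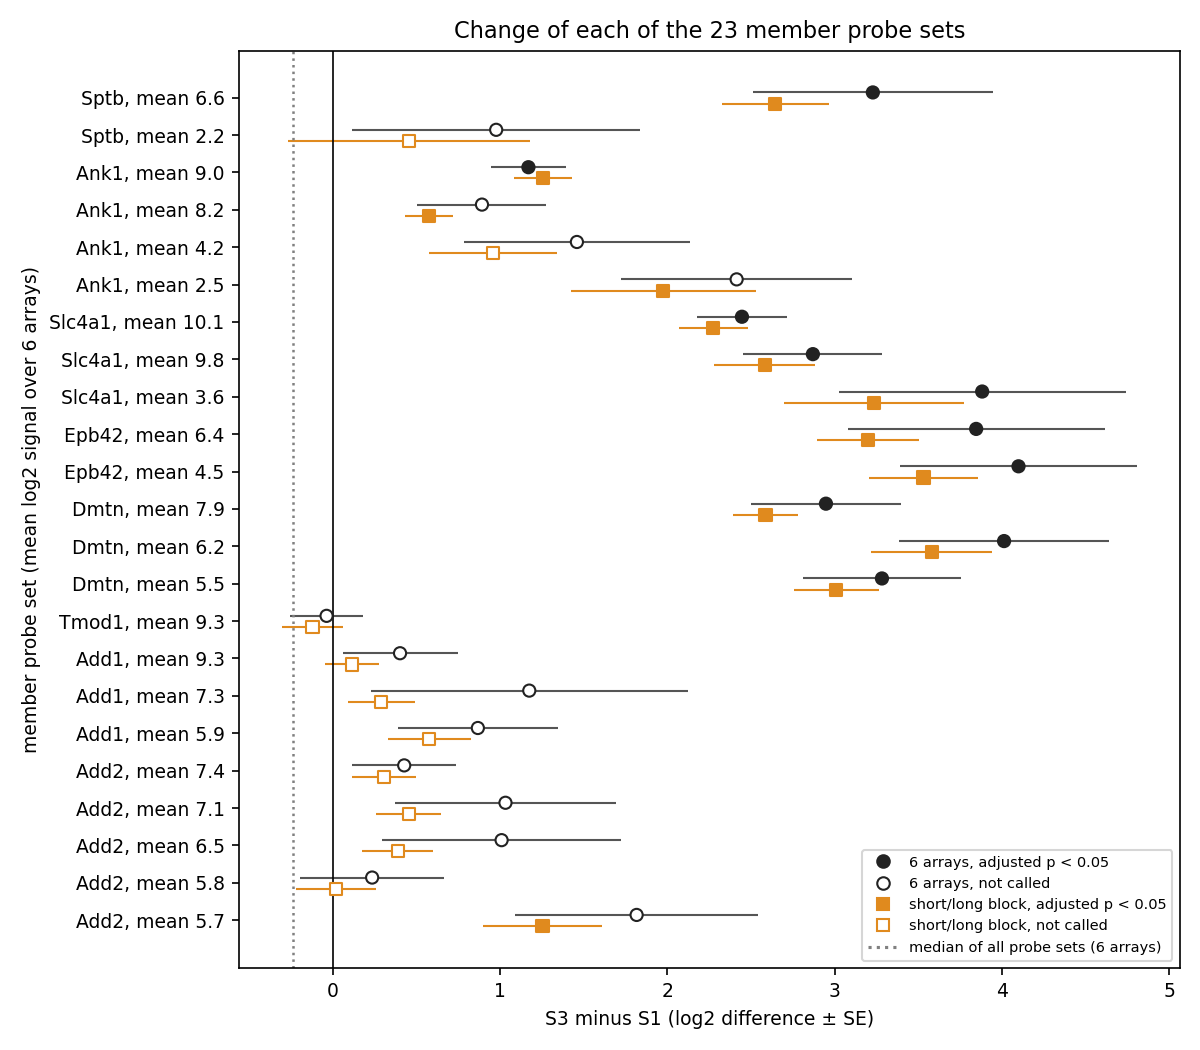
S3 minus S1 difference in log2 signal (horizontal axis) with its SE for all 23 probe sets of the 8 genes (vertical axis, by gene and mean log2 signal), as black circles from all 6 arrays and orange squares with the array kind as a block, filled where called; the dotted line is the median of all probe sets, -0.24. The 10 filled circles belong to Sptb, Ank1, Slc4a1, Epb42 and Dmtn, and the circles of Tmod1, Add1 and Add2 are all open.

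Counted by probe set, 10 of the 23 were called higher in S3 and none lower, against 1.61% higher and 6.66% lower among the 27022 probe sets tested. The 10 were all the probe sets of Slc4a1, Epb42 and Dmtn, the brighter one of Sptb and the brightest of Ank1. Of the 23, 22 had a positive difference, as did 37.3% of all probe sets, and 11 had every S3 array above every S1 array, as did 5.39%. The median difference was 1.46 over the 23 and -0.24 over all probe sets.

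The array kind also moved with these signals. In 9 of the 23 probe sets every long array was above every short one, as in 27.5% of all probe sets: the 3 of Add1, 4 of the 5 of Add2 and 2 of the 4 of Ank1. The median long minus short difference was 1.30 over the 23 probe sets, with the subset in the fit, against 0.61 over all. It was 1.75 for Sptb, 1.94 for Epb42 and 1.09 for Dmtn on their brightest probe sets, but 0.51 for Slc4a1 and -0.27 for Ank1. Since S1 held 2 short arrays and S3 held 1, the array kind entered the fit as a block. The 5 genes then differed by 1.26 to 3.20 log2 units and all were called, as were 5.81% of all genes higher in that fit. By probe set the block gave 13 of 23, against 4.16% of all. Within the long arrays alone (1 S1 and 2 S3) the 5 differed by 1.09 to 2.77, and within the short ones (2 S1 and 1 S3) by 1.43 to 3.63. These within-kind fits have 1 residual degree of freedom and assume that the lone array varies like the rest, so their p-values are not used here.

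**Figure D3:**
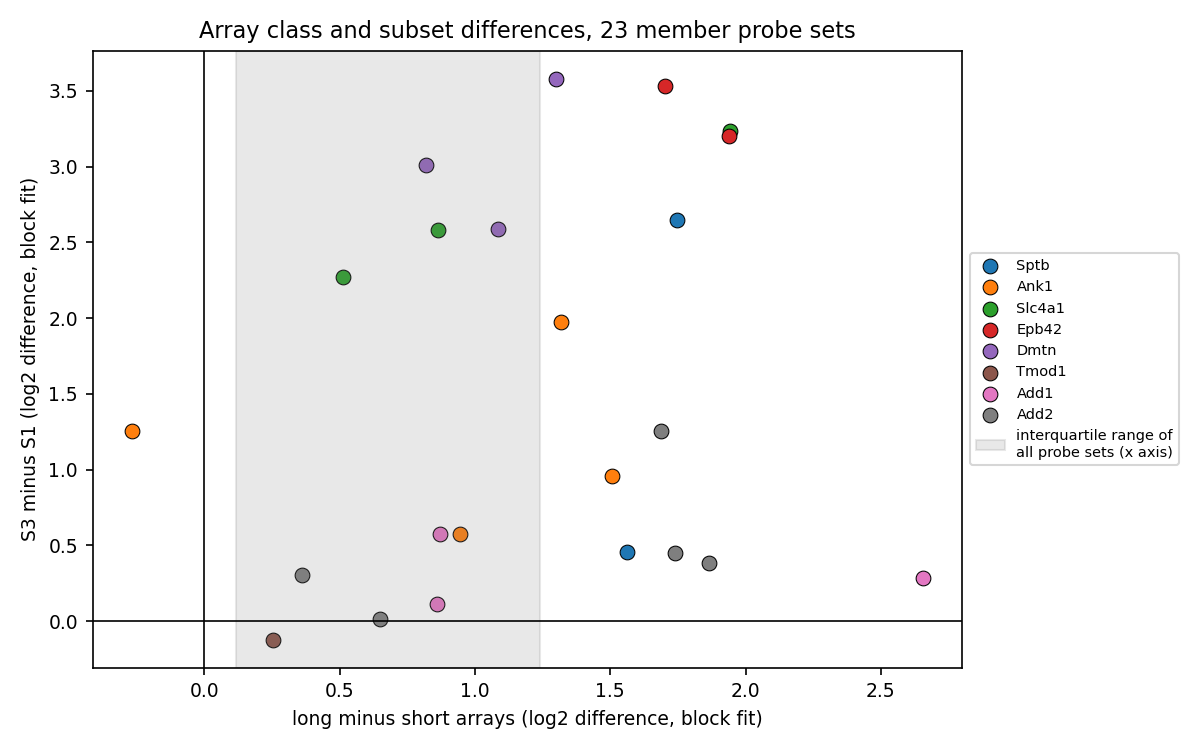
Long minus short difference (horizontal axis) against S3 minus S1 difference (vertical axis) in log2 signal, both from the fit that holds subset and array kind together, for the 23 probe sets coloured by gene. The grey band spans the interquartile range of all probe sets on the horizontal axis; the Dmtn, Slc4a1 and Epb42 points lie high on the vertical axis, while the Add1 point farthest to the right, at 2.66, lies near 0 on it.

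The number of genes called depended on which arrays were used. Leaving out 1 array at a time gave 2 to 5 called genes: 3 without S1 replicate 1, 2 without S1 replicate 2, 5 without S1 replicate 3, 3 without S3 replicate 1, 5 without S3 replicate 2 and 2 without S3 replicate 3. The same fits called 136, 147, 370, 128, 363 and 119 of all genes higher, in that order, against 302 with all 6 arrays. At gene level Slc4a1 and Dmtn were called each time, with adjusted p up to 0.0265 and 0.0399 (limma). Sptb missed the threshold without any one of S1 replicates 1 and 2 and S3 replicates 1 and 3 (limma, adjusted p = 0.0823 to 0.0940), as did Epb42 (0.0631 to 0.0752). Ank1 missed it without S1 replicate 2 (0.0577) or S3 replicate 3 (0.0520). The sign of each of the 5 differences was positive in all these fits. With adjustment over all probe sets, every Dmtn probe set missed the threshold without S3 replicate 3 (limma, adjusted p = 0.0568 to 0.0615). The brightest Slc4a1 probe set was called in all 6 such fits, while 1416464_at lost its call in 1 and 1431743_a_at in 5.

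Several members have a close relative with a role outside the red cell skeleton, and 8 pairs were compared within each array, as the member's log2 signal minus that of its relative, which removes any scaling of the array. Only the change of this difference from S1 to S3 can be read, since the probes differ. Sptbn1, the beta spectrin of most other cells, fell by 2.33 log2 units from 7.33 ± 0.36 to 5.00 ± 0.17 (SD, n = 3, limma adjusted p = 0.00712; 0.137 with the mean over its probe sets), and the Sptb minus Sptbn1 difference rose by 5.56. Add3, the gamma adducin, differed by -1.83 ± 0.51 (limma, adjusted p = 0.0527), which missed the threshold. It was called lower with the array kind in the fit (-2.19, adjusted p = 0.000127) and after median centring, quantile normalization and the trimmed mean (-1.60, -1.49 and -1.56, adjusted p = 0.0261, 0.0190 and 0.0238). It was not called with the mean over its probe sets (limma, adjusted p = 0.411) or with any 1 array left out (0.0555 to 0.143). Its dimmer probe sets were not called with all 6 arrays (limma, adjusted p = 0.617, 0.429 and 0.864 over all probe sets). The differences Add1 minus Add3 and Add2 minus Add3 moved by 2.23 and 2.25. Tgm2, the tissue transglutaminase, rose by 1.23 ± 0.28 (limma, adjusted p = 0.0264), a call that was lost without any one array but S1 replicate 3 (0.0506 to 0.1004). Epb42 minus Tgm2 moved by 2.62.

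In the other pairs the relative was not called with all 6 arrays. Slc4a1 minus Slc4a2 (a broadly expressed anion exchanger) moved by 2.40 and Dmtn minus Ablim1 (an actin-binding relative with a villin headpiece) by 3.46. Ank1 minus Ank3 had a difference of -1.99, whose size rests on S1 replicate 2, where Ank3 read -1.54, below background. It was -0.70 without that array, with a range of -2.87 to -0.70 over single arrays left out, and -0.49 among long arrays. Ank3 itself differed by 3.15 ± 1.13 (limma, adjusted p = 0.108), and passed the threshold with the array kind in the fit (0.0390) and after median centring (0.0380). It did not pass after quantile normalization (0.0616) or with the trimmed mean (0.0611). Its dimmer tested probe sets differed by 1.73, 0.74 and 0.07 and were not called (limma, adjusted p = 0.460, 0.606 and 0.970 over all probe sets). Tmod1 minus Tmod3 moved by 0.13. In 6 of the 8 pairs the S1 and S3 arrays did not overlap, which gives p = 0.1 in a two-sided exact permutation test, the smallest that 3 against 3 arrays allow (0.133 adjusted over the 8 pairs). The share of such pairs among other genes is not given here. The pairs of Add1 and Add2 share Add3, and each adducin overlapped between the subsets on its own brightest probe set. For Ank1 minus Ank3 and Tmod1 minus Tmod3 the exact p was 0.2 and 1. So this test cannot reach 0.05 for any pair.

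**Figure D4:**
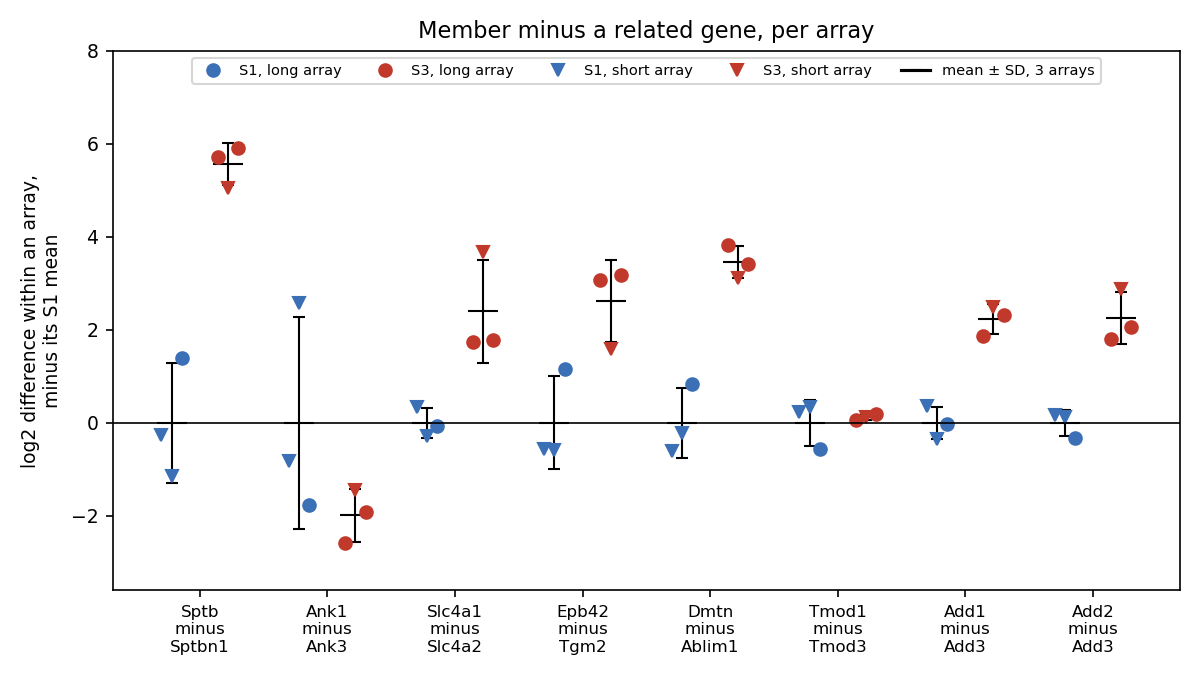
Log2 signal of each member minus that of its relative on the same array, shown relative to the pair's S1 mean (vertical axis), for 8 pairs, blue for S1 and red for S3, circles for long and triangles for short arrays, with mean ± SD of 3 arrays. Red points lie above blue ones in 6 pairs, lower on average for Ank1 minus Ank3, and among the blue ones for Tmod1 minus Tmod3.

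Other membrane and skeleton proteins of the red cell were taken as a list of 20 genes, of which 18 had a usable probe set. Of the 18, 7 rose, none fell and 11 were not called, with a median difference of 0.66, while 2.53% of all genes rose and 12.8% fell. The 11 include Actb (beta-actin), to which the values had been set, so its result was partly fixed by the scaling. With the array kind in the fit 11 were higher and 2 lower, as were 695 and 4922 of all 11959 genes. The count of those higher was 11 after quantile normalization and with the trimmed mean, and 4 without any one of S1 replicates 1 and 2 and S3 replicates 1 and 3. Over all genes 698, 616 and 119 to 147 were higher in those fits, in that order. The smallest p-values were those of Slc2a1, the glucose transporter held near the junctions, which rose by 0.69 ± 0.08 (limma, adjusted p = 0.0031); Gypc, glycophorin C, the membrane anchor of protein 4.1, by 0.94 ± 0.14 (0.0063); Stom, stomatin, by 0.63 ± 0.10 (0.00774); and Icam4, the Landsteiner-Wiener blood group glycoprotein, by 1.03 ± 0.17 (0.00988). After median centring Slc2a1 and Stom differed by more, 0.92 and 0.86, but were not called (limma, adjusted p = 0.104 and 0.125). Gypc read 8.79, 8.94 and 9.05 in S1 and 9.97, 9.82 and 9.83 in S3, so its subsets were well separated and long and short arrays were alike. Mpp1, the p55 protein that binds protein 4.1 and glycophorin C, was chosen after its values were seen; it rose by 2.23 ± 0.49 (limma, adjusted p = 0.0239).

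Among 23 tested relatives of the members (of 33 listed), 2 rose, 2 fell and 19 were not called, with a median of -0.51. Over all genes 2.53% rose and 12.8% fell. With the array kind in the fit 3 relatives were higher and 6 lower, as were 695 and 4922 of all 11959 genes. Epb41l1, a protein 4.1 relative, rose by 2.70 ± 0.40 (limma, adjusted p = 0.00679), from 2.56, 2.17 and 2.68 in S1 to 5.38, 4.87 and 5.25 in S3. Epb41l5, a more distant relative, fell by 1.30 ± 0.29 (limma, adjusted p = 0.0243), a call lost after median centring, quantile normalization and the trimmed mean (adjusted p = 0.126, 0.165 and 0.102). The other two calls were Sptbn1 and Tgm2, given above. The list of actin filament regulators also held Vim, which encodes an intermediate filament protein. Of the 23 tested genes of this list (of 27 listed), none rose, 6 fell, Vim among them, and 17 were not called. Their median was -0.47, against -0.33 over all genes. In the same test 12.8% of all genes fell. The 6 became 13 with the array kind in the fit, 1 after median centring, 4 after quantile normalization, 3 with the trimmed mean and 1 to 3 with 1 array left out. Over all genes the lower calls in those fits were 4922, 972, 1127, 1137 and 541 to 1273, in that order. Actr3, a subunit of the Arp2/3 complex that starts branched filaments, fell by 0.97 ± 0.16 (limma, adjusted p = 0.00936; 0.161 after median centring), and Vim, the intermediate filament protein vimentin, fell by 2.86 ± 0.68 (0.0313). The Vim call was lost without S1 replicate 1 (0.109), S1 replicate 3 (0.0718) or S3 replicate 3 (0.0812) and with the mean over probe sets (0.0576). Capza2 and Capza1, the alpha subunits of capping protein, fell by 1.02 ± 0.25 (0.0325) and by 0.41 ± 0.11 (0.0417). After median centring both lost the call (limma, adjusted p = 0.801 for Capza1 and 0.116 for Capza2), as they did without any 1 of the 6 arrays, and the Capza1 difference was 0.0097 with the array kind added to that fit.

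**Figure D5:**
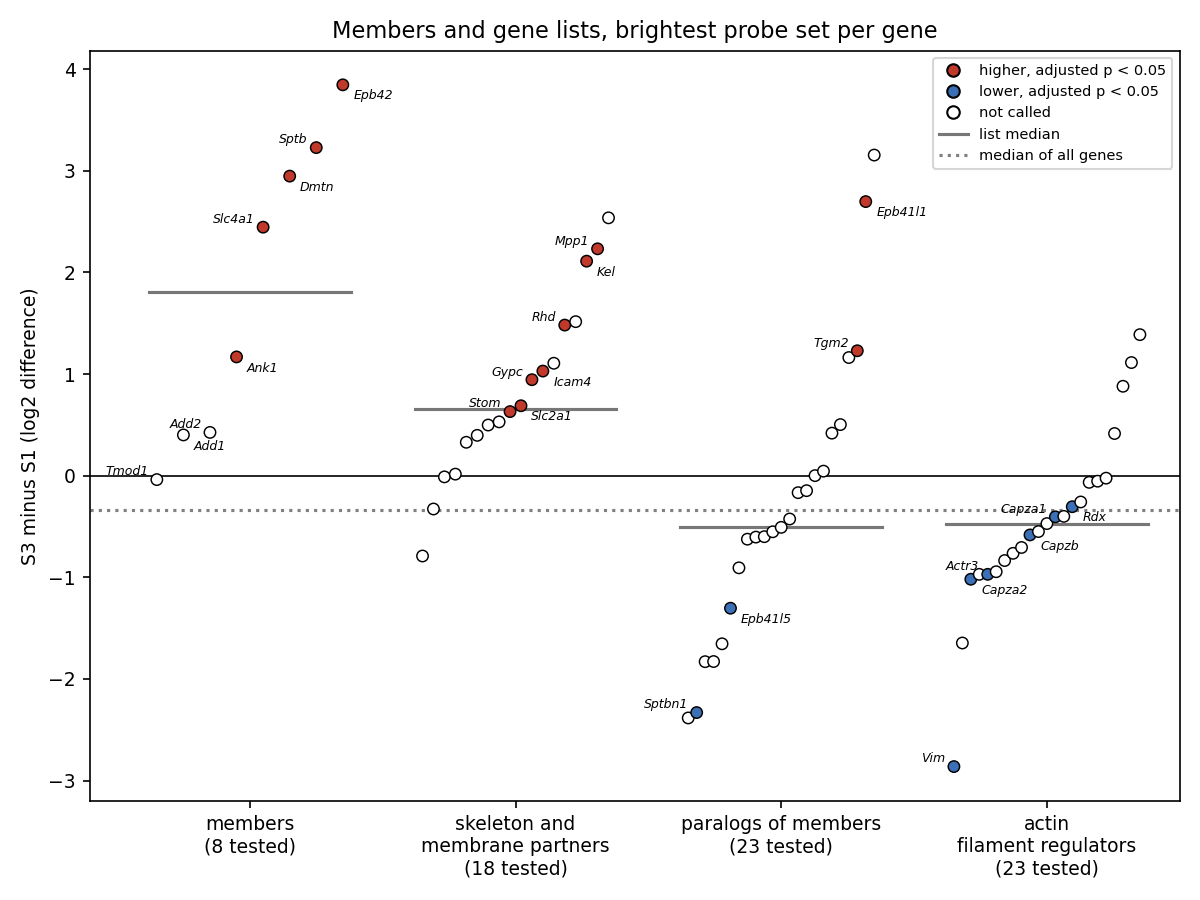
S3 minus S1 difference in log2 signal (vertical axis) for each tested gene of the members (8) and of 3 lists (18, 23 and 23), filled red where called higher, blue where called lower and open where not called. Grey bars are list medians (1.81, 0.66, -0.51 and -0.47) and the dotted line is the median of all genes, -0.33.

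Genes with the most similar pattern over the 6 arrays were sought by Pearson correlation with the mean of the members' standardised brightest probe sets. The 5 nearest, members left out, were Prokr1 (r = 0.996), Sh3yl1 (0.995), Abtb1 (0.993), Btrc (0.993) and Pld3 (0.992), as a description of 6 arrays that share subset and array kind. Prokr1, a prokineticin receptor, read 3.92, 3.70 and 4.64 in S1 and 6.64, 5.38 and 6.45 in S3. Its short S3 array was the lowest of the 3 S3 arrays and its long S1 array the highest of the S1 arrays, as for Sptb. Among the members themselves, Sptb and Epb42 were closest (r = 0.99), all pairs of the 5 genes that rose lay between 0.76 and 0.99, and Tmod1 lay between -0.36 and 0.59 with the others.

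Markers of other cell types were read on the same arrays. Of 7 megakaryocyte genes with a probe set (of 9 listed), 1 was called higher, Vwf (von Willebrand factor), by 2.72 ± 0.61 (limma, adjusted p = 0.0244), and none lower. The count was 4 with the array kind in the fit, after median centring and after quantile normalization, 3 with the trimmed mean, and 0 without any one of S1 replicates 1 and 2 and S3 replicates 1 and 3. Higher calls among all 11959 genes were 302 with all 6 arrays on the deposited scale. In those other fits they were 695, 478, 698, 616 and 119 to 147, in that order. Over these 7 genes the median S3 minus S1 difference was 1.74. Their summed linear signal was 85.3 to 182 in S1 and 362 to 388 in S3, with 6 or 7 of the 7 above background in S1 and all 7 in S3. The part of this signal in the rises was not tested. With all 6 arrays on the deposited scale, limma called no hepatocyte gene of 6, macrophage gene of 6 or endothelial gene of 3 tested. Of 4 granulocyte genes 1 was lower, as were 12.8% of all genes. Of the 6 hepatocyte genes, 2 were called higher with the array kind in the fit, 1 after median centring, 3 after quantile normalization, 2 with the trimmed mean and 4 without S3 replicate 2. Among all genes the higher calls in those fits were 695, 478, 698, 616 and 363, in that order. The part of these marker signals in the rises was not tested either. The median difference was 1.04 over the hepatocyte, 0.28 over the macrophage, 0.50 over the granulocyte and -0.47 over the endothelial genes tested. The hepatocyte sum was 272 to 326 in S1 and 245 to 984 in S3. The macrophage sum was 34.6 to 124 and 45.4 to 95.7, and Adgre1, C1qc and Cd14 were never above background. The granulocyte sum was 21.3 to 102 and 12.5 to 148, with Elane, Ctsg and Ltf never above background; the endothelial sum was 13.4 to 19.9 and 10.4 to 19.7. No lymphoid gene passed the limit on low signals.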

How the data were processed

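Total RNA of 3 S1 and 3 S3 samples was amplified, labelled with biotin and hybridised to Affymetrix mouse arrays, per the labels. The deposited values are log2 signals: the authors computed them with MAS5, per the submitters' processing notes, and set them to 18S, Gapdh and beta-actin, per the series' design text. The MAS5 version is not given in the sources used here. That the log has base 2 was read from the size of the values. Precision is limited by there being 6 arrays; such signals carry no read depth.

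The probe table gave 34945 probe sets 1 symbol, 932 several and 9160 none, and 64 were controls. Probe sets with a mean above the 40th percentile of non-control probe sets were kept, and each gene took its brightest. S3 was tested against S1 with limma 3.58.1 in R 4.3.3 (lmFit, eBayes with an intensity trend, Benjamini-Hochberg threshold 0.05). The script was tested on simulated data. Named genes were the members with every probe set, in each of the first 3 lists up to 4 called genes (lowest p), the relatives in the pairs and the 5 nearest patterns. The members and lists were chosen with earlier results of these data known. Alternatives covered scaling, filters, the variance model, blocks, the array kind, single arrays left out and the mean over probe sets. The arrays of a subset come from separate sorts. Same-numbered S1 and S3 arrays deviated from their subset means with correlations of -0.19, 0.36 and 0.43, and arrays of unlike number with -0.58 to 0.40. Every positive value joined arrays of the same kind, long or short, so this check cannot show whether a number marks a sorting day. Since the labels do not say so either, the numbers were not used to pair samples.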

Additional observations from a re-analysis of the deposited data

How the results depend on the processing

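All 5 members called higher kept their direction under all 20 alternatives. At gene level Slc4a1 and Dmtn also kept their call in each, leaving aside the fits within long or short arrays alone, whose p-values are not used. The count of members called higher (5 of 8) was 3 with the mean over probe sets, and ran from 2 to 5 with 1 array left out. Over all genes those fits called 208, and 119 to 370, higher, against 302. The count of probe sets called higher (10 of 23) was 6 without the intensity trend and 0 in the short arrays alone, and ran from 2 to 10 with 1 array left out. In the short arrays alone no probe set of the 27022 was called by limma in either direction, while at gene level the same arrays gave 337 higher and 2601 lower. With 1 residual degree of freedom those fits lean on limma's prior, of 3.65 degrees of freedom by probe set and 10.8 by gene. The replicate number as a block, which no label gives as a pairing, gave 5 of 8 genes and 10 of 23 probe sets, and 412 genes higher and 1897 lower among all genes. The array kind as a block gave 695 higher and 4922 lower of all genes, against 302 and 1533. It was used together with median centring in a setting chosen after seeing the data, which gave 1024 and 2013.

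Directions turned for some uncalled values. Tmod1 was at 0.19 after median centring, 0.24 after quantile normalization, 0.23 with the trimmed mean, 0.28 in long arrays alone and 0.33 with the block and median centring, and ran from -0.17 to 0.18 with 1 array left out. In the short arrays Add1 was at -0.16 and the Add2 probe set 1450442_at at -0.056, and in the long arrays the Sptb probe set 1455226_at was at -0.37. Slc4a2 was at -0.46 with the block, -0.067 in long and -0.85 in short arrays, and -0.012 with the block and median centring, and ran from -0.32 to 0.68 with 1 array left out. Tmod3 was at 0.064 after median centring, 0.16 after quantile normalization, 0.11 with the trimmed mean, 0.53 as a mean over probe sets and 0.057 with the block and median centring, and ran from -0.32 to 0.064 with 1 array left out. Ablim1 was at 0.37 as a mean over probe sets, and Tmod1 minus Tmod3 at -0.15 in short arrays and -0.57 as a mean over probe sets, with a range of -0.15 to 0.30 with 1 array left out. Capza1, called lower, was at 0.0097 with the block and median centring. The cause of these changes was not tested. The number of arrays (6), the dim probe sets of Sptb, Ank1 and Slc4a1, and the brighter band 3 probe sets near the top of the signal range limit what can be read.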
